A study of Mus musculus with 6 samples.

Results

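The peroxiredoxin and thioredoxin system is described here by 10 genes, matched by gene symbol in all 6 count tables, of 33006 genes counted in each. They are the 6 peroxiredoxins Prdx1 to Prdx6, the thioredoxins Txn1 and Txn2, the thioredoxin reductase Txnrd1 and the sulfiredoxin Srxn1. RNA came from primary endothelial cells of the lung of C57BL/6 mice, cultured in an endothelial growth medium and treated at 80% confluence. 3 libraries came from cells given 300 uM hydrogen peroxide (H2O2) for 6 hours and 3 from control cells given water for the same time. The labels name no animal or culture for a library, so p-values reflect the variation among these libraries alone, and that variation may be technical.

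Peroxiredoxins are enzymes that reduce hydrogen peroxide with a reactive cysteine, and in most of them the oxidised cysteine is closed into a disulphide that thioredoxin then opens. Thioredoxin is in turn reduced by thioredoxin reductase, a selenium-containing flavoenzyme that draws electrons from NADPH. At high peroxide the peroxiredoxin cysteine can be oxidised further to a sulphinic acid, which takes the enzyme out of the cycle, and sulfiredoxin reverses that step. In many cell types Txnrd1, Srxn1, Prdx1 and Txn1 are known targets of NRF2, which switches on antioxidant genes.

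After H2O2 the system did not move as a block. Prdx2 and Prdx4 rose by 16.9% and 18.03%, Srxn1 fell by 21.3%, Prdx6 fell by 17.2% and Txnrd1 fell by 8.31%, and the other 5 genes did not pass the test. All 12924 genes with enough counts were tested with edgeR's quasi-likelihood method, with a Benjamini-Hochberg adjusted p under 0.05 as the threshold. By that rule 9.7% of all tested genes were higher and 10.8% were lower, against 2 and 3 of these 10. All 10 passed the filter on low counts, with 1618 to 39619 reads per library. The median log2 fold change of the 10 genes was -0.016, beside -0.0041 over all tested genes, and the median size of a change was 0.09 in both. With a correction for transcript length and GC content, described below, the median log2 fold change was -0.071 for the 10 genes and -0.0035 for all tested genes.

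**Figure D1:**
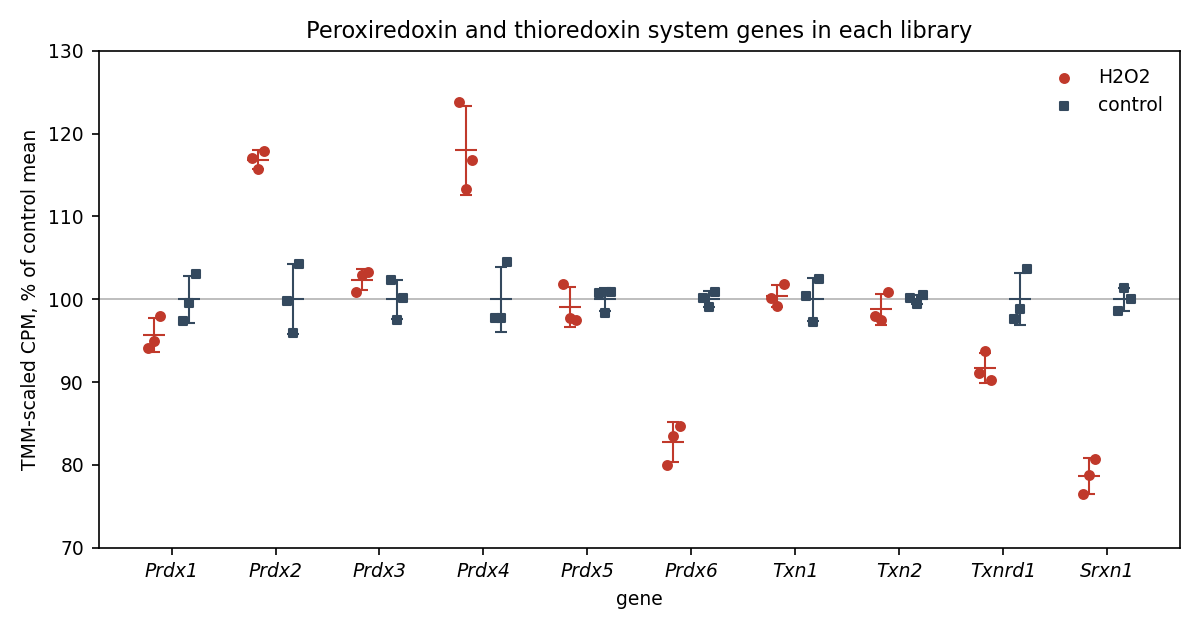
Normalised read count of each gene in each library as a percentage of the gene's control mean, with H2O2 libraries (circles) left of control libraries (squares). Horizontal dashes are means and bars are SD (n = 3). The H2O2 libraries lie between 113.3% and 123.8% for Prdx4 and between 76.5% and 80.8% for Srxn1, outside the range of their controls, whereas they overlap the controls for Prdx1, Prdx3, Prdx5, Txn1 and Txn2.

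The libraries held 26042296 to 27618679 gene counts with H2O2 and 22455388 to 25626849 in controls. Values are given as CPM, normalised read counts for which TMM factors set the library sizes. No 2 libraries of a group held identical counts, and every pair differed by more than sampling noise (1.62 to 11 in chi-square divided by its degrees of freedom). The largest values, 8.61 and 11, came from the pairs with H2O2 replicate 3, and the other pairs had 1.62 to 2.86. The endothelial label was checked with 7 markers, whose summed level was 4071 to 4105 CPM with H2O2 and 3826 to 3956 CPM in controls. Of these 7, Pecam1, Tek and Emcn rose and 0 fell, so the endothelial sum moved with the treatment, and its part in the results below was not tested. Of the 21 listed markers of epithelium, smooth muscle and pericytes, fibroblasts and leukocytes, 7 passed the filter on low counts and 0 of these were called. The listed leukocyte marker Adgre1 was not among the gene symbols counted, so its level is unknown. Summed levels were 0.584 to 1.001 CPM with H2O2 and 0.239 to 0.941 CPM in controls for epithelium. For smooth muscle and pericytes they were 3.87 to 4.60 CPM with H2O2 and 3.87 to 5.38 CPM in controls, and for fibroblasts 24.1 to 27.7 CPM with H2O2 and 26.6 to 27.9 CPM in controls. The leukocyte sum was 162.1 to 169 CPM with H2O2 and 157.2 to 163.4 CPM in controls and was almost all Cd68, while the pan-leukocyte gene Ptprc averaged 0.0128 CPM with H2O2 and 0 in controls. Of the listed markers, Sftpc, Scgb1a1, Krt8 and Cd3e had 0 counts in all 6 libraries, which allows up to 0.0195 CPM over the summed depth (3 counts, counting error only). Other markers did have reads. Dcn, most of the fibroblast sum, averaged 22.3 CPM with H2O2 and 22.3 CPM in controls. Pdgfra averaged 3.90 CPM with H2O2 and 4.63 CPM in controls, and Krt18 0.633 CPM with H2O2 and 0.603 CPM in controls. The 0 counts therefore do not show that other cell types were absent. In bulk RNA, fewer cells of a type and less RNA per cell cannot be told apart.

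Levels of different genes were compared per kilobase of exon, using the union of the exons of each gene in GENCODE M21. Prdx1, the main cytosolic peroxiredoxin, led the list with 464 ± 9.90 CPM per kb after H2O2 and 485 ± 13.8 CPM per kb in controls (SD, n = 3 each). Cytosolic thioredoxin, Txn1, followed with 371 ± 4.95 CPM per kb after H2O2 and 369.8 ± 9.60 CPM per kb in controls. All the others lay lower, with Prdx6 next at 85.96 ± 2.51 CPM per kb after H2O2 and 103.9 ± 0.943 CPM per kb in controls. In controls Srxn1 and Txnrd1 followed, with overlapping ranges of 92.6 to 95.2 and 90.7 to 96.2 CPM per kb, then Prdx3, Txn2 and Prdx4, and the overlapping pair Prdx2 and Prdx5 came last. With H2O2 Txnrd1 (83.8 to 87.1) overlapped Prdx6 (83.2 to 88.003) and lay above Srxn1 (71.8 to 75.8 CPM per kb), and Txn2 overlapped Prdx4. The first 3 and the last place were the same when the longest coding transcript was taken as the length, but 6 of the other ranks in controls changed. Levels also moved with the length used: by the longest coding transcript Prdx6 averaged 173.0 CPM per kb after H2O2 and 209 CPM per kb in controls, while Txn1 stayed at 371 CPM per kb after H2O2 and 369.8 CPM per kb in controls. Processed pseudogenes share 597 bases with the Prdx1 transcript at 98.3% identity, 597 with Prdx2 at 96.3% and 309 with Txn1 at 95.8%, so the counts of these 3 genes carry some uncertainty.

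**Figure D2:**
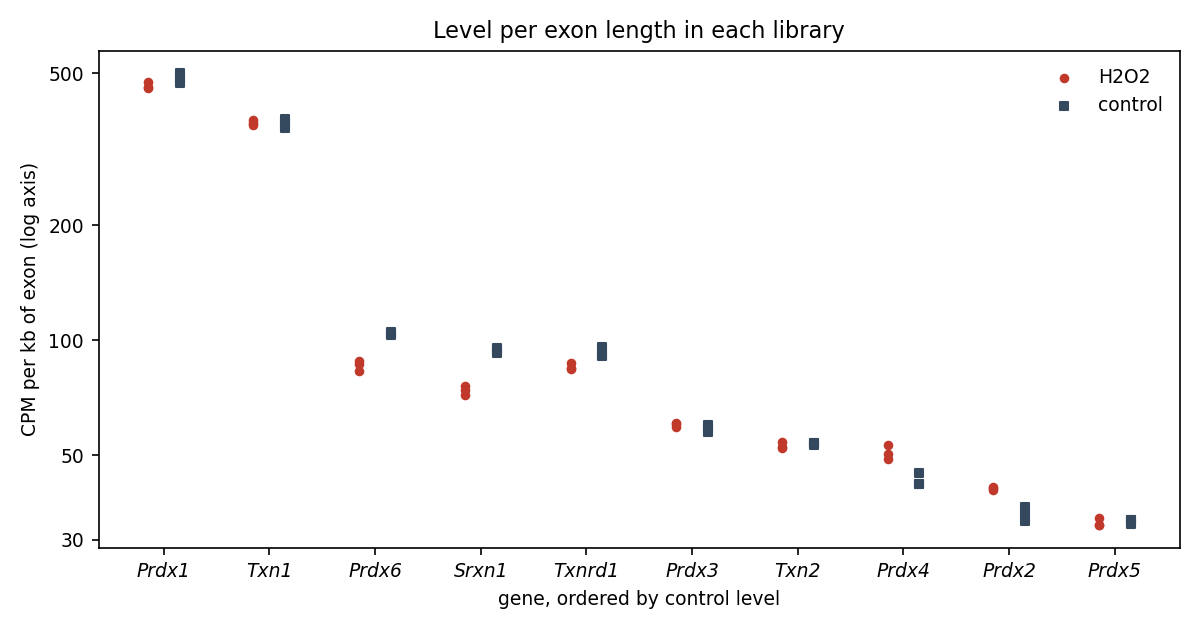
Level of each gene per kilobase of exon (CPM per kb, log axis) in each library, with H2O2 libraries (circles) left of control libraries (squares), ordered by the control mean. Prdx1 and Txn1 stand at 359.6 CPM per kb or more in every library, and the other 8 genes lie between 32.8 and 104.8.

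Among the peroxiredoxins of the cytosol, Prdx2 and Prdx1 differed. Prdx2, a 2-Cys enzyme that reacts with low levels of peroxide, had 125.003, 123.6 and 125.98 CPM in H2O2 libraries, against 106.7, 102.5 and 111.4 CPM in control libraries. Every H2O2 library lay above every control library, as was so for 16.5% of all tested genes. The log2 fold change was 0.23 (SE 0.0356), with an adjusted p of 3.6e-05 by edgeR's quasi-likelihood test. Prdx1 had 1389, 1401 and 1446 CPM with H2O2, against 1437, 1469 and 1520 CPM in controls. The highest H2O2 library reached into the control range, and the log2 fold change of -0.06 (SE 0.0283) did not pass, with an adjusted p of 0.12 by edgeR. Its approximate 95% interval (1.96 SE on either side) ran from -0.12 to -0.0078. Prdx1 did pass as lower without H2O2 replicate 3 (-0.08, adjusted p = 0.033 by edgeR) and once the fit was corrected for transcript length and GC content (-0.09, adjusted p = 0.017).

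The exons of Prdx2 (chromosome 8, 84969587 to 84974834, mm10) overlap exons of Junb and Rnaseh2a on the opposite strand over 11.5% of their bases. The strand setting of the counting is not given in the sources used here, so reads in that overlap cannot be assigned with certainty. Junb, an AP-1 subunit, moved the other way, at 87.4 ± 2.39 CPM with H2O2 and 104.5 ± 3.16 CPM in controls (SD, n = 3 each; log2 fold change -0.26). Rnaseh2a did not pass (-0.05).

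Prdx4, the peroxiredoxin of the endoplasmic reticulum, also rose. It had 112.2, 102.7 and 105.8 CPM in H2O2 libraries, against 88.6, 88.5 and 94.7 CPM in control libraries. The groups did not overlap, and H2O2 replicate 1 was the highest library. The log2 fold change was 0.24 (SE 0.0393), with an adjusted p of 5.9e-05 by edgeR. Prdx4 lies on the X chromosome at 155323918 to 155340754 and has a short transcript of 990 bases, and short transcripts as a class were higher after H2O2. In the fit corrected for length and GC content the log2 fold change was 0.17 (SE 0.0363) and passed, with an adjusted p of 5.8e-04.

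The organelle peroxiredoxins Prdx3 and Prdx5 gave no call. Prdx3, which sits in the mitochondrial matrix, had 87.6, 89.3 and 89.7 CPM with H2O2, against 88.8, 84.7 and 86.9 CPM in controls. Prdx5, an atypical 2-Cys enzyme of mitochondria, peroxisomes and cytosol, had 73.2, 70.2 and 70.1 CPM with H2O2, against 72.4, 70.7 and 72.5 CPM in controls. Both sets of libraries overlapped. The approximate 95% intervals of the log2 fold changes were -0.04 to 0.10 for Prdx3 and -0.09 to 0.06 for Prdx5, so a change of the size seen in Prdx2 lies outside both. Of the exon bases of Prdx5, 19.1% are shared with Trmt112 on the other strand, and Trmt112 did not pass either (-0.05).

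Prdx6 was the peroxiredoxin that fell. It is the 1-Cys member, reduced with glutathione rather than thioredoxin, also has a phospholipase activity on surfactant lipids, and is known as abundant in lung. It had 399.5, 416.6 and 423 CPM in H2O2 libraries, against 499, 494 and 503 CPM in control libraries. All H2O2 libraries lay below all controls, as for 18.2% of tested genes, and the gap between the groups was wider than the range within either. The log2 fold change was -0.27 (SE 0.0286), with an adjusted p of 7.1e-08 by edgeR. Prdx6 is on chromosome 1 at 161240112 to 161251219, and no annotated exon of another gene overlaps it. Gstp1, the glutathione transferase that reloads oxidised Prdx6 with glutathione, stood at 209 ± 9.62 CPM with H2O2 and 224.5 ± 5.42 CPM in controls (SD, n = 3 each).

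As shares of the summed peroxiredoxin level per kilobase, Prdx1 made up 63.1% ± 0.380 with H2O2 and 63.9% ± 0.575 in controls (SD, n = 3 each). Prdx6 made up 11.7% ± 0.232 with H2O2 and 13.7% ± 0.226 in controls. Prdx2 (5.57% ± 0.0590 with H2O2 and 4.62% ± 0.125 in controls) and Prdx4 (6.91% ± 0.362 with H2O2 and 5.67% ± 0.0960 in controls) took larger shares after H2O2, as did Prdx3 (8.18% ± 0.0898 with H2O2 and 7.74% ± 0.266 in controls). The sum itself overlapped, at 727 to 748 CPM per kb with H2O2 and 747 to 778.5 CPM per kb in controls. Within each library the ratio of Prdx2 to Prdx6 per kilobase was 0.493, 0.467 and 0.469 with H2O2, against 0.337, 0.327 and 0.349 in controls. These shares and ratios depend on the exon lengths used and are descriptions with no test.

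Srxn1, the enzyme that repairs overoxidised 2-Cys peroxiredoxins, showed the largest fall of the 10. It had 202.5, 208.7 and 213.9 CPM in H2O2 libraries, against 261 CPM in control replicate 1, 268 CPM in replicate 2 and 265 CPM in replicate 3. The groups did not overlap, and each group spread over a small part of the gap between them. The log2 fold change was -0.35 (SE 0.0301), and its adjusted p of 2.8e-09 by edgeR was the 55th smallest of the 12924 genes. Per kilobase there were 12.0 ± 0.194 Srxn1 units for each 100 units of Prdx1 to Prdx4 with H2O2 and 15.1 ± 0.396 in controls (SD, n = 3 each; no test), a value that also depends on the lengths used. Srxn1 lies on chromosome 2 at 152105516 to 152111376.

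Txnrd1, the cytosolic reductase that recharges thioredoxin, fell by a smaller amount. It had 599.7, 617 and 594 CPM in H2O2 libraries, against 643, 651 and 682 CPM in control libraries. The groups did not overlap. The log2 fold change was -0.13 (SE 0.0287), with an adjusted p of 0.0023 by edgeR. Over the fits that left out 1 library it ran from -0.14 to -0.10 and kept its call, the largest adjusted p being 0.043. Txnrd1 lies on chromosome 10 at 82833951 to 82897712, with 8 annotated transcripts and several start sites whose use cannot be read from counts per gene.

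The thioredoxins themselves gave no call. Txn1 had 389, 385.6 and 395.8 CPM with H2O2, against 390.1, 378 and 398 CPM in controls. Txn2, the mitochondrial thioredoxin, had 221, 219.8 and 227.7 CPM with H2O2, against 225.8, 224.2 and 226.7 CPM in controls. In both genes the libraries of the groups overlapped. The log2 fold changes were 0.0056 for Txn1 and -0.017 for Txn2, with approximate 95% intervals of -0.05 to 0.06 and -0.07 to 0.04. Txn1 changed sign in the fit corrected for length and GC content, at -0.07 (SE 0.0277), and did not pass there either (adjusted p = 0.07).

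**Figure D3:**
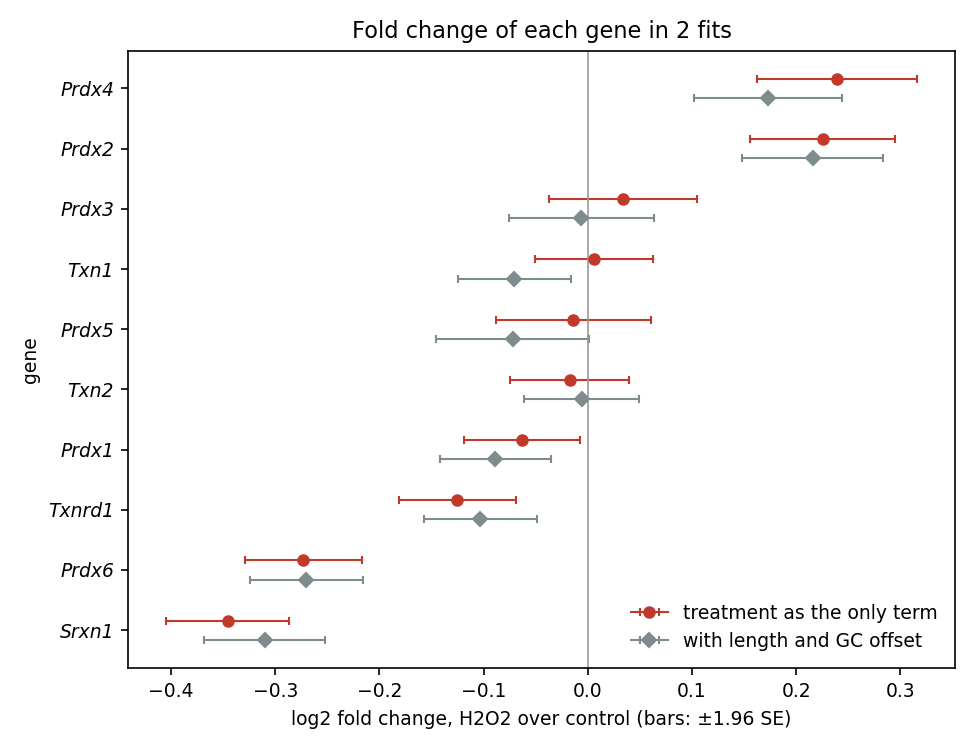
log2 fold change (H2O2 over control) of each gene, ordered by size, in the fit with treatment as the only term (circles) and in the fit corrected for transcript length and GC content (diamonds). Bars are 1.96 SE on either side. Prdx4 and Prdx2 lie right of 0 and Txnrd1, Prdx6 and Srxn1 left of 0 in both fits, and Prdx1 passes the test as lower in the second fit.

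Over all genes the fold change differed with transcript length, mainly among the shortest transcripts. Genes were sorted into 10 bins of equal number by length. In the shortest bin, with longest transcripts of up to 1237 bases, the median log2 fold change was 0.10, with 24.4% of genes higher and 3.6% lower. In bins 5 to 7 (2631 to 4234 bases) the medians were -0.04 to -0.02. The median was -0.0032 in bin 4, which holds Prdx6, and the longest bins, 9 and 10, had -0.012 and -0.0043. The genes that rose, Prdx4 and Prdx2 (1612 bases), belong to the 2 shortest bins, and those that fell, Prdx6 (2387 bases), Srxn1 (2812 bases) and Txnrd1 (3622 bases), to longer ones. Set against the genes of its own bin, Srxn1 lay at percentile 2.78, Prdx6 at 3.92 and Txnrd1 at 20. Prdx2 lay at percentile 87 of its bin and Prdx4 at 74.5. In the corrected fit all 5 kept their direction and their call, with log2 fold changes of 0.22 for Prdx2, 0.17 for Prdx4, -0.27 for Prdx6, -0.10 for Txnrd1 and -0.31 for Srxn1.

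**Figure D4:**
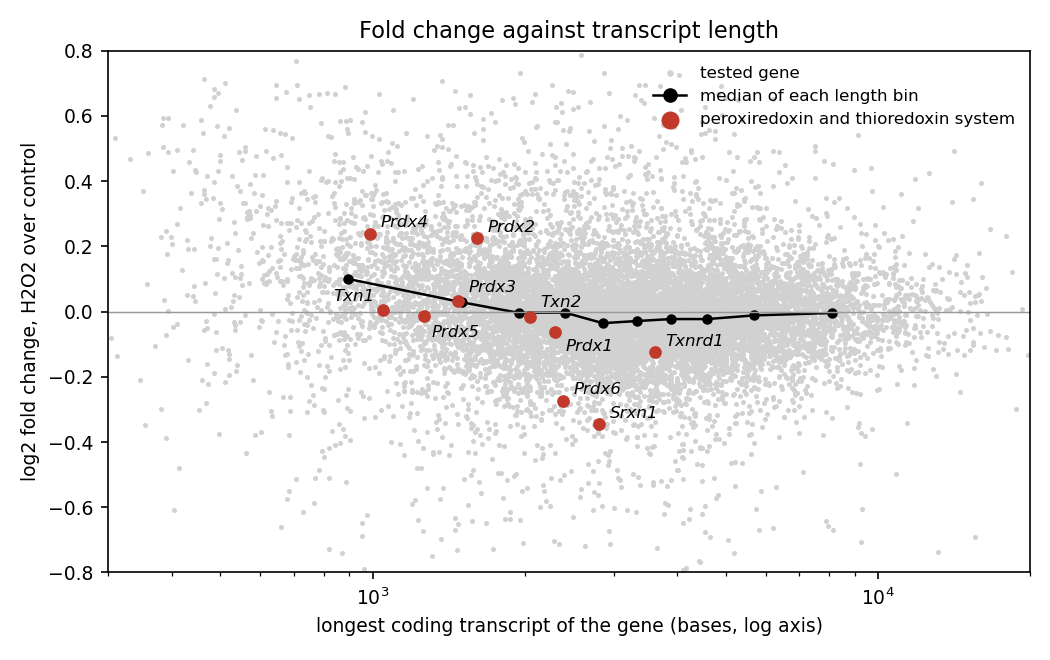
log2 fold change (H2O2 over control) against the longest coding transcript of each gene (bases, log axis). Grey points are tested genes (145 of 12230 with a length lie outside the axes), black points are medians of 10 length bins and red points are the 10 genes. The median falls from 0.10 in the shortest bin, and Srxn1 and Prdx6 lie below most genes of their length.

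The starts of these genes were searched for the antioxidant response element, the sequence bound by NRF2, since known targets of that factor were among the genes that fell. RefSeq windows (GRCm38.p6, 250 bases before to 50 after a start) were found for 9 of the 10 genes, all but Prdx6. The element was searched on both strands as TGACNNNGC or TGAGNNNGC, and the AP-1 element, which can overlap it, as TGANTCA. Of 32851 windows of this length, 27.8% held the first and 7.81% the second. Counted per gene, 35.6% of the 9430 tested genes with a window held the first and 6.21% the second, beside 4 and 2 of the 9 genes here. The letters searched were set after some windows had been seen, so these counts are a description with no test. Srxn1, Prdx1, Txnrd1 and Txn2 held the first, and Srxn1 and Prdx1 also the second. Windows of Srxn1 and Txnrd1, which fell, and of Prdx1, which holds both elements and did not pass, are shown beside that of Prdx4, which rose and holds neither. Each is written 5′ to 3′ on the gene's strand, and capitals mark every match of either element.
Srxn1 (chr2:152105274-152105573, plus strand): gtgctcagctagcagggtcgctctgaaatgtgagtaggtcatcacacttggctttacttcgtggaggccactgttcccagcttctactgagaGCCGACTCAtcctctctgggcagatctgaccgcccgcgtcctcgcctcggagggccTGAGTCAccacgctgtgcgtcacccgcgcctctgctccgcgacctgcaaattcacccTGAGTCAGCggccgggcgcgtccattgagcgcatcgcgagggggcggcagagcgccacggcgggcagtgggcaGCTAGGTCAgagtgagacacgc
Txnrd1 (chr10:82858956-82859255, plus strand): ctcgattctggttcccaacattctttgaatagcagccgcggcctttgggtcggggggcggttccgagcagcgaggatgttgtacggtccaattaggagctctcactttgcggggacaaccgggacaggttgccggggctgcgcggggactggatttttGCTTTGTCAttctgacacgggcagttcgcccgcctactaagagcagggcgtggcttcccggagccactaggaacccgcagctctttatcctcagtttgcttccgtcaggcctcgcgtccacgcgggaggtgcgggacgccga
Prdx1 (chr4:116685349-116685648, plus strand): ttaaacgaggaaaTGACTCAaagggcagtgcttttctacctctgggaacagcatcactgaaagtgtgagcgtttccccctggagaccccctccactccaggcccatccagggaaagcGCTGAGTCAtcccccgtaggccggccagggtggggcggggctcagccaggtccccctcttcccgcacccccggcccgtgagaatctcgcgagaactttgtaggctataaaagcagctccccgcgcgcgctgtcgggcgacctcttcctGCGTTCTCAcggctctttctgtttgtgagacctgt
Prdx4 (chrX:155338411-155338710, minus strand): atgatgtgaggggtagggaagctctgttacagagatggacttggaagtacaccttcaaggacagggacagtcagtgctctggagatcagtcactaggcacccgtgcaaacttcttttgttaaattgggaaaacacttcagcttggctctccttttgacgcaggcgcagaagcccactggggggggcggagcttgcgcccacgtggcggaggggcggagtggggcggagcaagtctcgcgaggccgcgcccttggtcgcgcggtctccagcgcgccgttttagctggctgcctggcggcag

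In the Srxn1 window, TGAGTCAGC begins 45 bases before the start and holds an AP-1 element inside the antioxidant response element, and another AP-1 element begins at 102 bases. In the Prdx1 window the overlap of both elements, GCTGAGTCA, begins 133 bases before the start. Of 3 Txnrd1 windows, the one shown held a match, GCTTTGTCA, 92 bases before its start. The windows of Prdx2, Prdx3, Prdx4, Prdx5 and Txn1 held neither set of letters. A match is a description of the letters, and a link between matches and fold changes was not tested. The log2 fold changes of the genes with a match were -0.35 (Srxn1), -0.13 (Txnrd1), -0.06 (Prdx1) and -0.017 (Txn2), and the last 2 did not pass. Those without a match had 0.23 (Prdx2), 0.03 (Prdx3), 0.24 (Prdx4), -0.014 (Prdx5) and 0.0056 (Txn1). Prdx6, at -0.27, had no window.

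The genes whose values over the 6 libraries lay closest to those of Srxn1 were Plek, Hmox1 and Got1, among 8055 other genes whose mean log2 CPM was 4 or more. Closeness was the root mean square difference of log2 CPM centred on each gene's own mean, and it was 0.013 for Plek, 0.0166 for Hmox1 and 0.0221 for Got1, beside a median of 0.176. The genes named were picked as the closest, so they lie below the median by choice. Their log2 fold changes were -0.35 for Plek, -0.36 for Hmox1 and -0.32 for Got1. Plek stood at 61.7 CPM with H2O2 and 78.7 CPM in controls, and Got1 at 166.2 CPM with H2O2 and 207.8 CPM in controls. Hmox1, which encodes the inducible haem oxygenase, stood at 595 CPM with H2O2 and 762 CPM in controls. For Prdx4 the closest were Arpc4, a subunit of the actin-branching complex (0.0191), Npnt, the matrix protein nephronectin (0.0198), and the transporter gene Slc35b2 (0.0211), beside a median of 0.143.

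Outside the 10 genes, 47 other genes of the thioredoxin fold, its clients and the neighbouring thiol and methionine repair systems were read from the same fit. All 47 were tested, 4 rose and 4 fell, which is 8.51% in each direction and near the 9.7% and 10.8% of all genes. Their median log2 fold change was 0.0017. All H2O2 libraries lay above all controls in 12 of them and below in 6, or 25.5% and 12.8%, beside 16.5% and 18.2% of all tested genes.

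Of 18 other thioredoxin system and thioredoxin-fold genes, 3 rose and 2 fell. Txndc12, a thioredoxin-fold protein of the endoplasmic reticulum, stood at 103 ± 4.33 CPM with H2O2 and 91.6 ± 1.49 CPM in controls (SD, n = 3 each), a log2 fold change of 0.17. On the log2 scale Txndc15 rose by 0.19 and Tmx3, a membrane-bound disulphide isomerase, by 0.14. Txnl1, a thioredoxin-like protein of the proteasome, fell by 0.11 on that scale, and the spliceosome protein gene Txnl4a fell by 0.19. The mitochondrial reductase Txnrd2 (0.09) and Txnip, which binds and inhibits thioredoxin (-0.013), did not pass. Txndc12 kept its call without any 1 library, the largest adjusted p by edgeR being 0.0089. Txndc15 also kept its call, but near the threshold, at 0.047 without control replicate 3 and just under 0.05 without control replicate 2. Tmx3 lost its call without H2O2 replicate 1 (adjusted p = 0.087) and without control replicate 1 (0.057). Txnl1 lost it without H2O2 replicate 1 (0.083), H2O2 replicate 2 (0.085), control replicate 1 (0.062) and control replicate 2 (0.086). Txnl4a lost it without H2O2 replicate 1 (0.11), H2O2 replicate 2 (0.1) and control replicate 3 (0.19), by DESeq2's test (0.07) and in the fit corrected for length and GC content (0.11).

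The glutaredoxins and glutathione reductase gave 0 calls among 5 genes. The most abundant, glutathione reductase (Gsr), stood at 261 ± 4.58 CPM with H2O2 and 252 ± 5.87 CPM in controls (SD, n = 3 each; log2 fold change 0.05). Of 4 methionine sulphoxide reductases, which repair oxidised methionine with electrons from thioredoxin, Msrb3 rose, at 69.5 ± 0.893 CPM with H2O2 and 63.4 ± 0.478 CPM in controls (log2 fold change 0.13). Msrb3 lost its call without H2O2 replicate 1 (adjusted p = 0.057) and without control replicate 2 (0.06). Of 3 sestrins, 0 were called, and the most abundant, Sesn2, stood at 79.5 ± 1.65 CPM with H2O2 and 81.8 ± 2.67 CPM in controls.

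Among 11 clients and partners, 2 fell. Ero1l, the oxidase that makes disulphides in the endoplasmic reticulum and releases peroxide there, stood at 320 ± 7.51 CPM with H2O2 and 346 ± 10.8 CPM in controls (SD, n = 3 each; log2 fold change -0.11). It lost its call without H2O2 replicate 1 (adjusted p = 0.06) and without control replicate 2 (0.09). Gstp1 fell by 0.10 on the log2 scale, though its libraries overlapped, and lost its call without H2O2 replicate 2 (adjusted p = 0.19), control replicate 1 (0.075) or control replicate 2 (0.14), with upper-quartile factors (0.059) and by DESeq2's test (0.051). In the fit corrected for length and GC content Gstp1 stood at -0.21 and passed (adjusted p = 5.3e-06 by edgeR). Of 6 genes that insert selenocysteine, which Txnrd1 needs, 0 were called, and the most abundant, Eefsec, stood at 43.9 ± 1.69 CPM with H2O2 and 46.4 ± 1.18 CPM in controls.

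**Figure D5:**
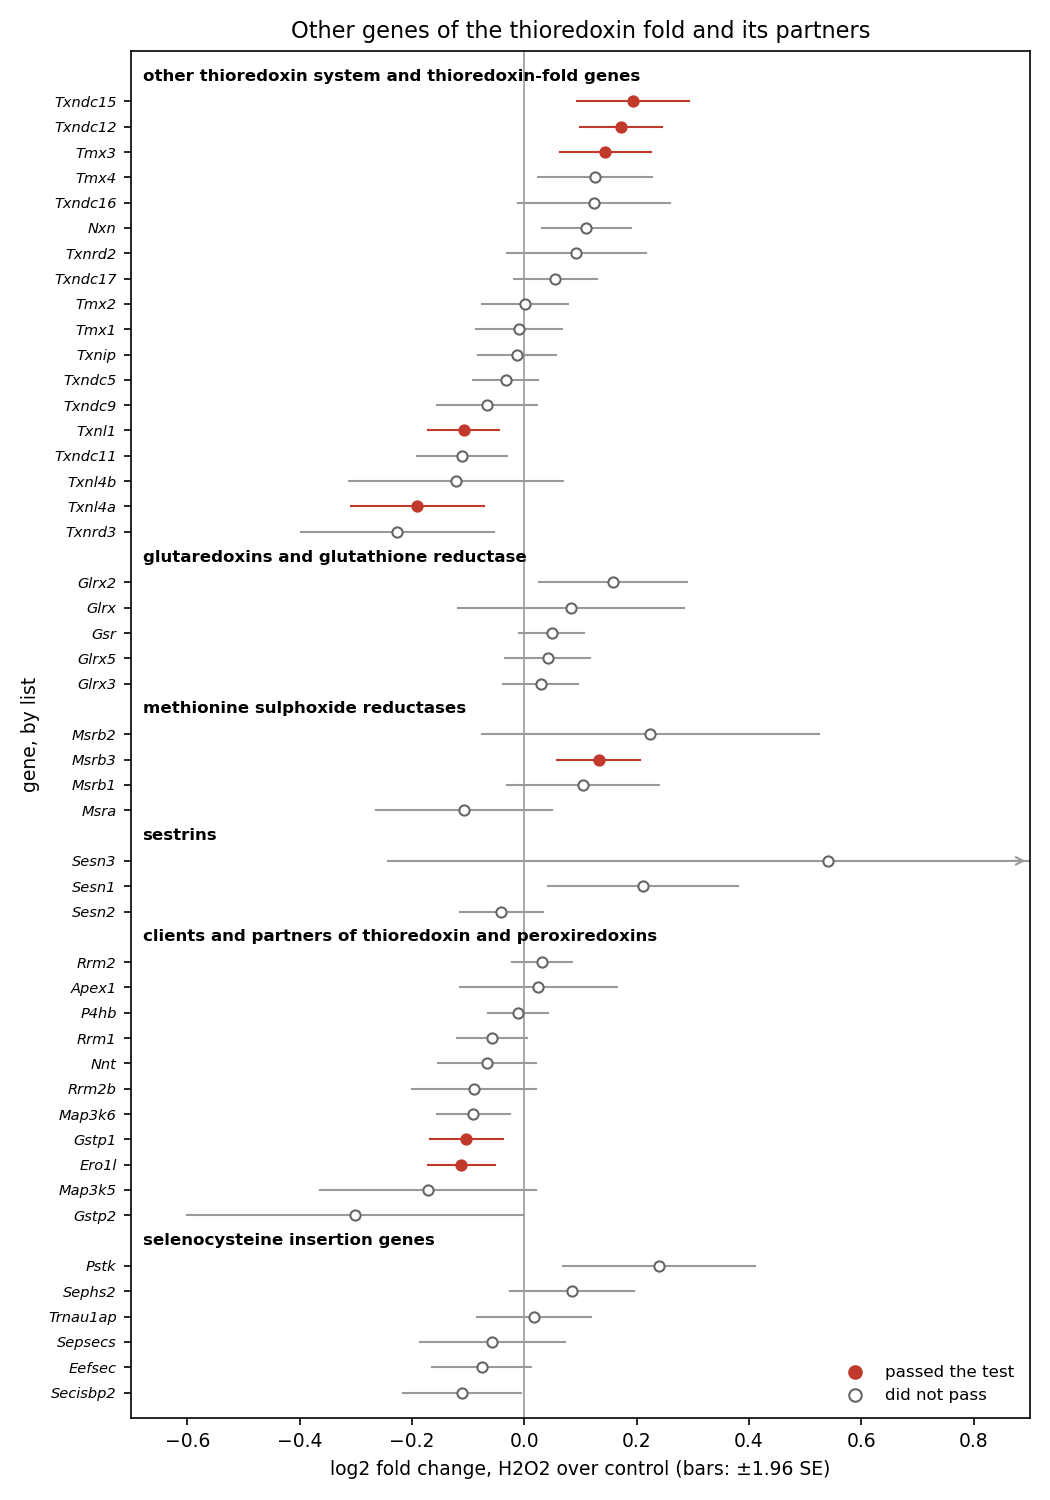
log2 fold change (H2O2 over control) of 47 other pathway genes, grouped by list, with bars of 1.96 SE on either side. Filled points passed the test and open points did not. The 8 filled points lie between -0.19 and 0.19, and the bar of Sesn3, which averaged 0.741 CPM with H2O2 and 0.507 CPM in controls, runs past the axis.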

How the data were processed

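mRNA libraries of 3 H2O2 and 3 control samples were sequenced. The authors deposited unnormalised counts of reads, 1 whole number per gene symbol and library. The submitters' processing notes list STAR 2.5.3, bcl2fastq 2.17.1.14, HTSeq, cutadapt and DESeq2, and the build mm10. The annotation and strand setting are not given in the sources used here. The 5 HTSeq summary classes entered neither library sizes nor tests (no feature 4.76% to 5.46%, ambiguous 3.17% to 3.30%, not unique 11.03% to 11.7% of reads, others 0). The not unique share did not overlap between groups, at 11.03% to 11.13% with H2O2 and 11.43% to 11.7% in controls. Its part in the results was not tested.

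All genes were fitted together with edgeR 4.0.16 (R 4.3.3, limma 3.58.1): filterByExpr, TMM factors, treatment as the only term, quasi-likelihood test, and Benjamini-Hochberg adjustment at 0.05 over 12924 genes. Alternatives were other scaling factors, DESeq2 1.42.0, limma-voom, looser and stricter filters (1 CPM in all libraries), the replicate number as a block, fits without each library, and a per-library loess offset (span 0.3) for transcript length and GC content. The methods were first run on simulated data, which was a check of the code and not of the calls reported here. Gene models came from GENCODE M21 (the mm10 assembly), with a length for 94.6% of tested genes. Windows came from RefSeq.

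The named genes were the 10 genes, every called gene of each other list or else its most abundant one, and the 3 genes closest to the largest rise and fall. Genes and lists were chosen with earlier results of these data known, and the letters of the elements after some windows had been seen.

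Near-identical copies were searched with blastn 2.17.0 (95% identity, 100 bases or more).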

Additional observations from a re-analysis of the deposited data

How the results depend on the processing

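The calls of the 10 genes were the same with library sizes alone, with upper-quartile or DESeq2 size factors, by DESeq2's test, limma-voom and both other filters. Prdx1 alone gained a call, as lower, without H2O2 replicate 3 (-0.08) and with the length and GC offset, alone (-0.09) or with the replicate block (-0.09). Over the fits without 1 library, 2 of the 10 rose and 3 to 4 fell, and of all genes 891 to 1178 rose and 926 (without H2O2 replicate 1) to 1313 fell, in place of 1254 and 1395. Of the other 47 genes, 2 to 5 rose and 1 to 8 fell in those fits, in place of 4 and 4. With DESeq2's test 2 of the 47 fell, and with the replicate block 7 fell. Same-numbered libraries did not deviate together (correlations of 0.0022, 0.0299 and -0.0261), so the numbers are not taken as pairs, and the block changed 0 of the 10 calls. The cause of these changes was not tested. Scaling moved the median of all genes by little, to 0.0082 at most. The length and GC offset moved the median of the 10 genes from -0.016 to -0.071, while that of all genes stood at -0.0035. Each of the 10 genes had at least 1618 reads per library, whereas at 0.741 CPM with H2O2 and 0.507 CPM in controls Sesn3 was too low to give a direction. With the longest coding transcript as the length, an alternative chosen after seeing the data, the shares and ratios per kilobase took other values: Prdx6 made up 15.9% of the peroxiredoxin sum with H2O2 and 18.6% in controls, and Srxn1 came to 8.61 units for each 100 of Prdx1 to Prdx4 with H2O2 and 10.96 in controls. Prdx2, Prdx3 and Prdx4 had larger shares with H2O2 in every library, and Prdx6 smaller ones, though the level of Prdx3 itself gave no call. A change of length scales a gene by the same factor in every library, so these directions could hardly differ and are no separate check.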

Other observations

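Close relatives of the 10 genes that are known from testis were near 0, a list chosen after the values were seen. Prdx6b, a retrocopy of Prdx6, had 1 read in H2O2 replicate 3 and 0 in the other 5 libraries. Txndc2, a sperm thioredoxin, had 12, 2 and 5 reads in H2O2 libraries and 7, 8 and 5 reads in control libraries.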
